A study of Mus musculus with 24 samples.

Results

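The collagen chain genes are the genes whose symbols consist of Col, a number, the letter a and a number, antisense genes left out. The rule found 44 genes among the 45706 gene entries of the count tables, one gene for each kind of alpha chain. By the kind of structure their chains build, 11 are fibrillar, 8 belong to basement membranes, 9 are fibril-associated, 6 form beaded filaments (type VI), 4 are transmembrane, 3 are network-forming, 1 forms anchoring fibrils and 2 are others. The RNA of 24 libraries of mouse embryonic fibroblasts, connective tissue cells taken from embryos and grown on plastic, was sequenced, 3 libraries in each of 8 groups. GR Zn/Zn cells, in which both alleles of the glucocorticoid receptor gene (GR) carry a changed zinc finger of the part that contacts DNA, and GR wild-type cells were each given Dex plus LPS, LPS, Dex or vehicle. Dex is dexamethasone, a synthetic glucocorticoid that binds GR, and was given at 1 uM for 16 h. LPS is lipopolysaccharide, a bacterial cell wall component that starts inflammatory signalling, and was given at 100 ng/ul for 6 h. The vehicle was ethanol, for 16 h, and cells given LPS alone had had ethanol for the same time. All cells came from male C57BL/6 embryos of day 13.5, freed of the head and of the internal organs, mainly heart and liver, digested with trypsin and cultured for 7 days. The labels do not say whether the 3 libraries of a group came from separate embryos or cultures, so each p-value speaks to the spread among these libraries alone, and that spread may be technical. An effect of the genotype and one of the embryos or cultures behind it cannot be told apart, and counts per gene do not show the changed allele, so the genotype labels were not checked by it.

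Collagens are the main proteins of connective tissue. Their chains wind around each other into stiff helical rods, which are secreted, trimmed and cross-linked outside the cell. Fibrillar collagens form the rope-like fibrils of skin, bone and tendon: type I is the bulk of them, type III joins it in soft tissue, type II takes its place in cartilage, and types V and XI are built into the fibrils and limit their width. Type IV forms the sheet on which epithelia, muscle and vessels rest, type VI forms beaded filaments close to cells, type VIII forms nets beneath endothelium, and the fibril-associated types sit on the surface of fibrils. Fibroblasts make most of the type I, III, V and VI collagen of soft tissue, and glucocorticoids are known to lower collagen production in skin.

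Each library held 18893069 to 57954068 reads counted to genes on the transcribed strand, and levels are given in CPM, read counts scaled to the library size after TMM normalisation, which evens out differences in composition between libraries. A count of 0 allows a level of up to 0.0518 to 0.159 CPM, depending on the library (3 reads of the unscaled total, counting error only). Of the 44 genes, 39 passed the filter on low counts and were tested, 16 averaged above 100 CPM in every group and 9 averaged below 1 CPM in every group. The fibroblast markers were present in every library: in vehicle Pdgfra stood at 150.3 to 163 CPM in GR Zn/Zn and 33.6 to 34.7 CPM in wild-type cells, Thy1 at 628 to 779 and 313 to 320.1 CPM, and Dcn at 61.7 to 70.0 and 41.0 to 44.0 CPM. Pdgfra, Thy1 and Dcn were thus higher in GR Zn/Zn cells. The sum of all fibroblast markers read went the other way and was lower there, as given with the genotype comparison. Several libraries stood apart. Wild-type DexLPS replicate 1 and GR Zn/Zn DexLPS replicate 2 had low values of collagen genes with long transcripts, with a Spearman correlation of -0.699 and -0.615 across 24 collagen genes of the library between transcript length and the deviation from the group. Wild-type DexLPS replicate 3 and GR Zn/Zn vehicle replicate 1 were low in Col1a1 and had the highest sums of 6 liver markers, 178 and 157 CPM, where the 24 libraries ranged from 0.172 to 178 CPM. These 4 libraries and GR Zn/Zn LPS replicate 2, 1 of the 3 most deeply sequenced, are the 5 that were left out together in an alternative fit. Wild-type Dex replicate 3 was high in cartilage genes.

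Type I collagen led in every group. In vehicle, Col1a1, the gene of the main type I chain, had 6148, 9736 and 9168 CPM in GR Zn/Zn and 7083, 7746 and 8005 CPM in wild-type cells (replicates 1 to 3). Col1a2, the gene of its partner chain, had 5777, 7131 and 6778 CPM in GR Zn/Zn and 5711, 6019.7 and 6029 CPM in wild-type cells. Col5a2, a type V chain of the same fibrils, had 2544, 2672 and 2582 CPM in GR Zn/Zn and 2542, 2658 and 2637 CPM in wild-type cells. The genotypes overlapped in all 3 genes, and GR Zn/Zn replicate 1 was the low library in Col1a1. Divided by transcript length, these 3 genes were the highest in wild-type vehicle cells, at 1284 ± 80.2, 1107 ± 33.9 and 394 ± 9.32 CPM per kb (mean ± SD, n = 3), followed by Col4a1 at 338, Col3a1 at 286, Col5a1 at 249 and Col4a2 at 231 CPM per kb. In GR Zn/Zn vehicle cells the order after Col1a1 and Col1a2, at 1408 and 1227 CPM per kb, was Col3a1 at 405, Col5a2 at 392, Col5a1 at 273, Col4a1 at 243 and Col6a1 at 221 CPM per kb. The type I chain genes kept a ratio close to each other: Col1a1 stood to Col1a2, per kb, at 1.14 ± 0.154 in GR Zn/Zn and 1.16 ± 0.0395 in wild-type vehicle cells (mean ± SD, n = 3 each).

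All 44 genes together took 3.50% to 3.84% of the counted reads in GR Zn/Zn Dex libraries, 2.78% to 3.47% in GR Zn/Zn vehicle, 3.03% to 3.19% in wild-type Dex and 2.78% to 2.97% in wild-type vehicle libraries, and 2.57% to 3.84% over all 24. Col1a1 and Col1a2 made up 41.0% to 52.4% of these reads. In the share of all 44 genes the Dex libraries lay above the vehicle libraries without overlap in both genotypes. The gap in GR Zn/Zn cells was narrow, from 3.47% in the highest vehicle library to 3.50% in the lowest Dex library. Under LPS the libraries with and without Dex overlapped in both genotypes. There the mean share was higher with Dex plus LPS than with LPS in wild-type cells and lower in GR Zn/Zn cells. These differences in share were not tested.

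**Figure D1:**
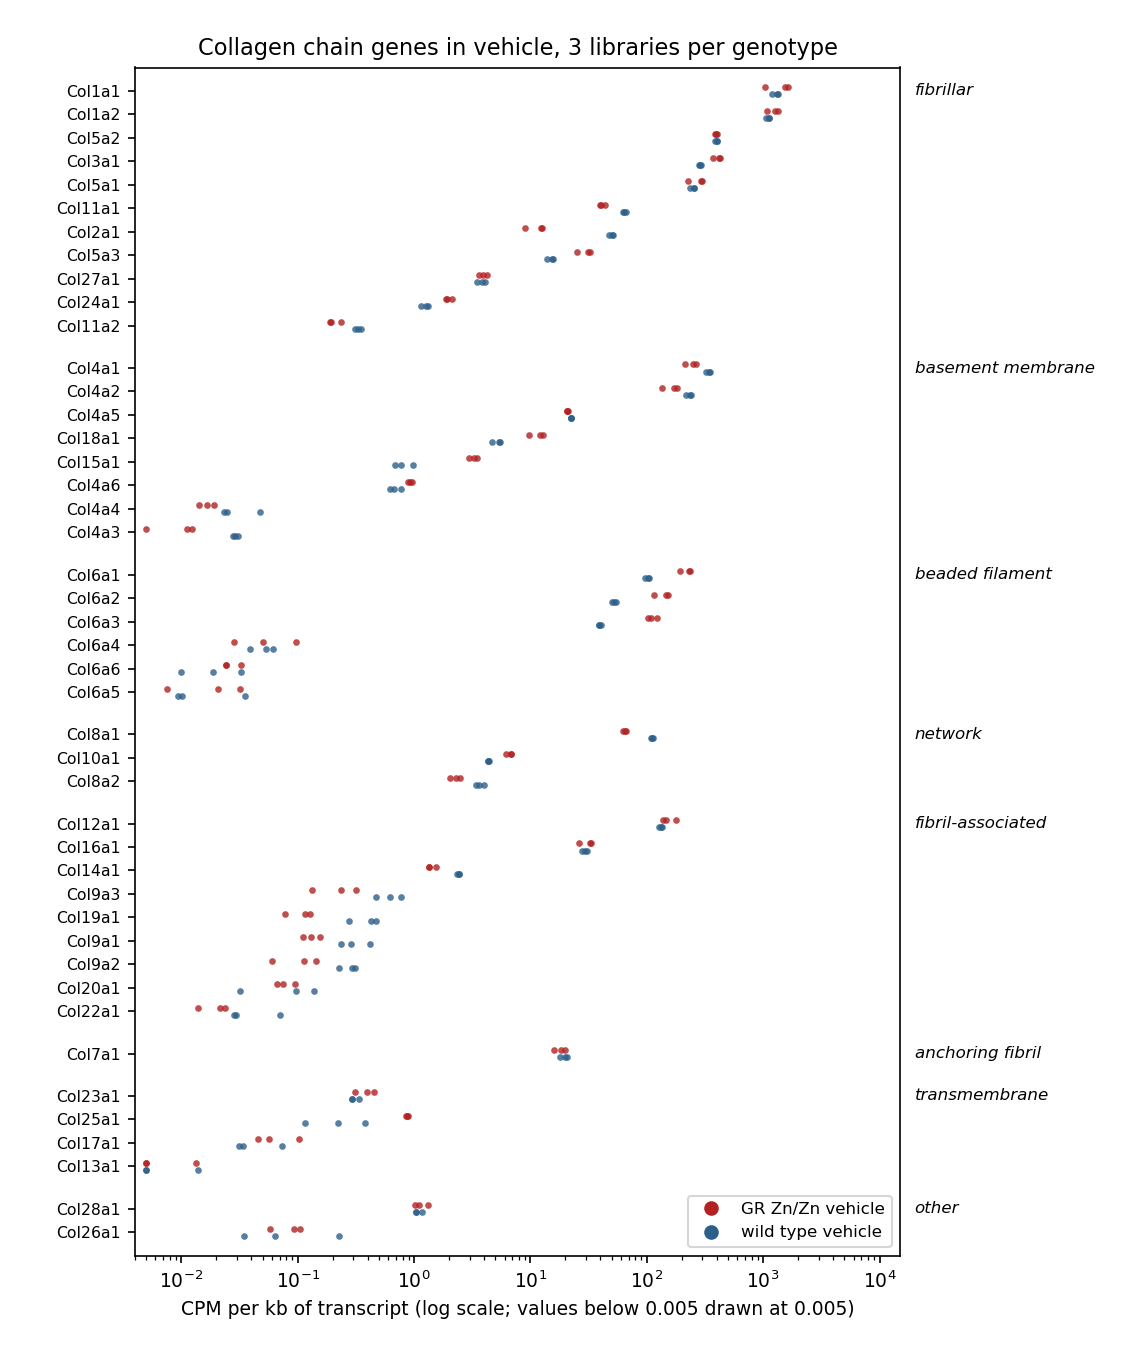
Level of each of the 44 collagen chain genes in vehicle, in CPM per kb of transcript on a log axis, grouped by the kind of collagen; points are the 3 libraries of GR Zn/Zn and of wild-type cells, and values below 0.005 are drawn at 0.005. Col1a1 and Col1a2 stand at 1107 CPM per kb or more on average in both genotypes, while the type VI genes Col6a1, Col6a2 and Col6a3 lie higher in GR Zn/Zn than in wild-type cells.

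Dex moved a small set of collagen genes in wild-type cells and none that passed the test in GR Zn/Zn cells. In wild-type cells Dex against vehicle raised Col11a1 (type XI), Col6a1 and Col6a2 (type VI), Col15a1, Col4a1 and Col4a2 (basement membrane) and Col19a1 (fibril-associated), and lowered Col27a1, Col5a3 (both fibrillar) and Col8a1 (network). These are 10 of the 39 tested genes, 7 higher and 3 lower, or 25.6%, where 13.2% of all 15221 tested genes were called, 7.92% higher and 5.24% lower (edgeR quasi-likelihood test, Benjamini-Hochberg adjusted p under 0.05 over all tested genes). The median log2 fold change was 0.046 over the 39 genes and 7.9e-05 over all tested genes. In wild-type cells under LPS, Dex raised 7 and lowered 5 collagen genes, 12 of 39 or 30.8%, where 21.0% of all tested genes were called, 10.5% higher and 10.6% lower. The median was -0.041 over the collagen genes and 0.010 over all tested genes. The Dex comparisons with and without LPS share no library. Of the genes raised, 5 rose in both, which is 5 of 7 in each list. Of the genes lowered, 2 fell in both, 2 of 3 in the comparison without LPS and 2 of 5 in that with LPS. The same overlap over all tested genes is not given here, so these counts cannot be set against it. With Dex in GR Zn/Zn cells 0 of 39 were called, where 0% of all tested genes were, and the smallest adjusted p among the 39 was 0.675. The median log2 fold change was 0.11 over the 39 genes, 0.19 over the 11 fibrillar genes and -0.0057 over all tested genes. An unadjusted p under 0.05 was reached by 8 collagen genes, 5 of them fibrillar, and by 1109 of all 15221 tested genes. Under LPS 0 of 39 were called in these cells, where 0.00657% of all tested genes were. There 0 collagen genes and 889 of all tested genes had an unadjusted p under 0.05, and the median was -0.016 over the collagen genes and -0.0077 over all tested genes. DESeq2 and limma-voom also called 0 in both. The wild-type count without LPS was 16 without the 5 libraries that stood apart and 17 with limma-voom, and 6 were called under LPS when the spread was estimated from the compared groups alone. Over all tested genes this last fit called 1544 of 14126 under LPS, where the fit of all 24 libraries called 3198 of 15221. The collagen calls under LPS that it lost were those of Col4a1 (adjusted p = 0.0588), Col5a2 (0.140), Col7a1 (0.0570), Col10a1 (0.0938) and Col19a1 (0.0723), and Col17a1 did not pass its filter on low counts.

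**Figure D2:**
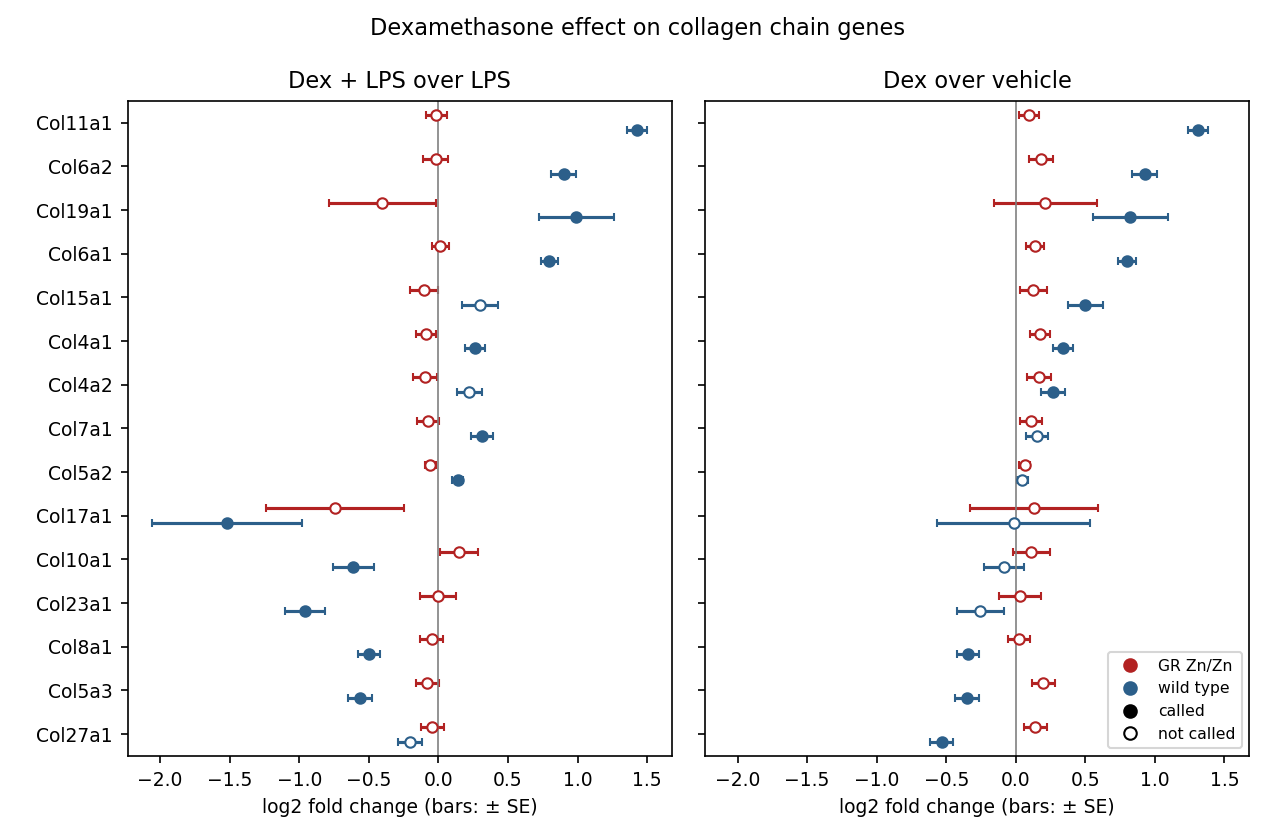
Log2 fold change (points) and SE (bars) of Dex plus LPS over LPS (left panel) and of Dex over vehicle (right panel) for the 15 collagen genes called in either wild-type comparison, GR Zn/Zn above wild type in each row; filled points are called. Col11a1, Col6a1 and Col6a2 lie to the right in wild-type cells in both panels, and no GR Zn/Zn point is filled.

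Col11a1 (ENSMUSG00000027966), which encodes a chain of type XI collagen, a minor partner of cartilage and other thin fibrils, showed the largest called rise with Dex in wild-type cells, with and without LPS.
The promoter of Col11a1, the 250 bases before its annotated start on the plus strand of chr3:114030290-114030539 (RefSeq, build GRCm38.p6), is shown because no other collagen gene rose as far with Dex in wild-type cells among those called. Capitals mark a CCAAT box (CCAAT on either strand) and GC boxes (GGGCGG on either strand).
Col11a1 promoter: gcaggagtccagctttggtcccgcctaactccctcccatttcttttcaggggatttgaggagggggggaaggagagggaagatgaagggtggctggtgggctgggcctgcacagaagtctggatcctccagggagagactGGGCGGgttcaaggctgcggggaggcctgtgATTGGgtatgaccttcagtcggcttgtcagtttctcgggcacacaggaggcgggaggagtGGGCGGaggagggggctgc

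In wild-type cells Col11a1 had 1221, 1231 and 1225 CPM with Dex and 481, 490.2 and 510.0 CPM with vehicle. Under LPS it had 959, 1179.6 and 1183 CPM with Dex plus LPS and 407, 409.5 and 418 CPM with LPS. Every library with Dex lay far above every library without it, and the libraries of each group lay close together except with Dex plus LPS, where replicate 1 was low. The level was 2.48-fold higher with Dex than with vehicle (log2 fold change 1.31, SE 0.074, adjusted p = 9.81e-12) and 2.69-fold higher with Dex plus LPS than with LPS (log2 fold change 1.43, SE 0.074, adjusted p = 2.24e-12). Among GR Zn/Zn libraries the values were 336, 326 and 346 CPM with Dex and 303, 308 and 333 CPM with vehicle, and 256, 204 and 249.6 CPM with Dex plus LPS and 238, 241 and 237 CPM with LPS. These libraries all lay below the wild-type vehicle libraries, and the interval of the Dex effect was -0.049 to 0.24 (95%, log2 scale). Per kb, Col11a1 reached 0.649 ± 0.0266 of Col5a1 with Dex against 0.259 ± 0.00740 with vehicle in wild-type cells, and 0.138 ± 0.00339 against 0.152 ± 0.0198 in GR Zn/Zn cells (mean ± SD of the ratio, n = 3 each). In the authors' deposited table its log2 fold change with Dex in wild-type cells was 1.30.

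Col11a1 is a cartilage gene, so cartilage markers were read beside it. Of 7 such markers 5 were tested and 1 was called higher with Dex in wild-type cells. In bulk RNA, fewer cells of a type and less RNA per cell cannot be told apart. The summed level of the 7 markers was 29.7 to 49.9 CPM with Dex and 28.1 to 30.0 CPM with vehicle. Sox9, the main cartilage transcription factor, had 17.9 to 19.9 CPM with Dex and 17.9 to 20.3 CPM with vehicle, and Acan, the main cartilage proteoglycan, 2.57 to 13.99 CPM with Dex and 2.73 to 4.37 CPM with vehicle. The top of the Dex ranges is replicate 3, the library high in cartilage genes. The part of these markers in the rise of Col11a1 was not tested. Col2a1, the cartilage fibril gene, had 214, 219.9 and 255 CPM with Dex and 242, 264 and 255 CPM with vehicle and was not called (log2 fold change -0.14, SE 0.12, adjusted p = 0.574), although per kb it stood at 0.281 ± 0.0276 of Col11a1 with Dex and 0.771 ± 0.0326 with vehicle. Col9a1, Col9a2, Col9a3 and Col11a2, other cartilage chains, were not called either. Col9a1 had 1.25, 0.950 and 8.20 CPM with Dex and 1.09, 1.62 and 0.910 CPM with vehicle, where replicate 3 with Dex stood alone.

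Of the 3 fibrillar genes called without LPS, the other two fell. Col27a1, which encodes a fibrillar chain of growing cartilage, had 19.98, 18.5 and 21.3 CPM with Dex and 26.3, 30.8 and 29.2 CPM with vehicle in wild-type cells. The Dex libraries were all lower, by 1.45-fold (log2 fold change -0.53, SE 0.083, adjusted p = 6.48e-05). Under LPS it had 18.5, 23.4 and 19.1 CPM with Dex plus LPS and 23.4, 22.9 and 23.7 CPM with LPS and was not called (-0.20, adjusted p = 0.0878). The GR Zn/Zn libraries had 34.3, 31.3 and 32.8 CPM with Dex and 27.5, 29.7 and 32.3 CPM with vehicle, where the groups lay close to each other. Col5a3, per kb the lowest of the type V genes, fell with Dex without LPS (-0.35, SE 0.087) and under LPS (-0.56, SE 0.084). Col5a2 rose under LPS by 0.14 on the log2 scale, a small change (adjusted p = 0.0133) whose adjusted p was 0.0563, 0.0830 and 0.0594 without wild-type LPS replicate 1, 2 or 3. The main chains were not called: with Dex in wild-type cells the interval of the log2 fold change was -0.17 to 0.35 for Col1a1, -0.030 to 0.23 for Col1a2 and -0.15 to 0.075 for Col3a1. Col1a2 was called slightly higher with limma-voom, without LPS (0.098, adjusted p = 0.0384) and under LPS (0.15, adjusted p = 0.0117), and without LPS also when the spread was estimated from the compared groups alone (adjusted p = 0.00453). In limma-voom wild-type DexLPS replicate 2 had a weight of 1.99, and replicates 1 and 3 had 0.152 and 0.147. In GR Zn/Zn cells Col1a1 averaged 10618 CPM with Dex and 8351 ± 1928 CPM with vehicle (SD, n = 3), where replicate 1 was low, and was not called.

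Type VI collagen is assembled from the products of Col6a1, Col6a2 and Col6a3, and in wild-type cells Dex raised the first pair while Col6a3 was not called.
The promoter of Col6a2 is shown because this gene gave the next largest called rise with Dex in wild-type cells without LPS. The 250 bases before the more upstream of its annotated starts lie on the minus strand at chr10:76623631-76623880 (RefSeq, GRCm38.p6), and capitals mark a GC box.
Col6a2 promoter: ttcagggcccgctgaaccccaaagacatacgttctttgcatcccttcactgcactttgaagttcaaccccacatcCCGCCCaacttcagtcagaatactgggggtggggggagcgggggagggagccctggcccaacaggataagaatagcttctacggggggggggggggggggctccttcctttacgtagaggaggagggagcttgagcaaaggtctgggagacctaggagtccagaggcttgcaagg

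Col6a2 had 407, 399 and 369.8 CPM with Dex and 199.6, 206 and 213 CPM with vehicle in wild-type cells, and 384, 375 and 314 CPM with Dex plus LPS and 192, 177 and 206 CPM with LPS. Every library with Dex lay above every library without it. The level was 1.90-fold higher with Dex than with vehicle (log2 fold change 0.93, SE 0.090, adjusted p = 6.93e-08) and 1.87-fold higher with Dex plus LPS than with LPS (log2 fold change 0.90, SE 0.090, adjusted p = 7.64e-08). Col6a1, its neighbour on chromosome 10 on the same strand, averaged 721 ± 23.0 CPM with Dex and 414 ± 13.7 CPM with vehicle (SD, n = 3 each) and rose by 0.80 on the log2 scale (SE 0.063, adjusted p = 2.45e-09). Under LPS it rose by 0.80 (SE 0.063, adjusted p = 1.87e-09). Col6a3, the gene of the largest chain, averaged 361 ± 5.67 CPM with Dex and 398 ± 9.60 CPM with vehicle and was not called (log2 fold change -0.14, SE 0.096, adjusted p = 0.450). Its fold change was negative, and it was called lower with limma-voom (adjusted p = 0.0332) and without the 5 libraries that stood apart (adjusted p = 0.000331). The proportion of the chains differed with it. Per kb, Col6a3 had 0.198, 0.200 and 0.212 of Col6a1 with Dex in wild-type cells and 0.402, 0.379 and 0.389 with vehicle. The same ratio was 0.185 ± 0.0365 with Dex plus LPS and 0.379 ± 0.0106 with LPS (mean ± SD, n = 3 each). For GR Zn/Zn cells the ratio was 0.455, 0.469 and 0.463 with Dex and 0.521, 0.462 and 0.531 with vehicle, where the groups overlapped. There Col6a2 had 618, 584 and 661 CPM with Dex and 459, 605 and 578 CPM with vehicle, and the intervals of the Dex effect were 0.010 to 0.36 for Col6a2 and 0.016 to 0.26 for Col6a1 (adjusted p = 0.675 and 0.675).

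**Figure D3:**
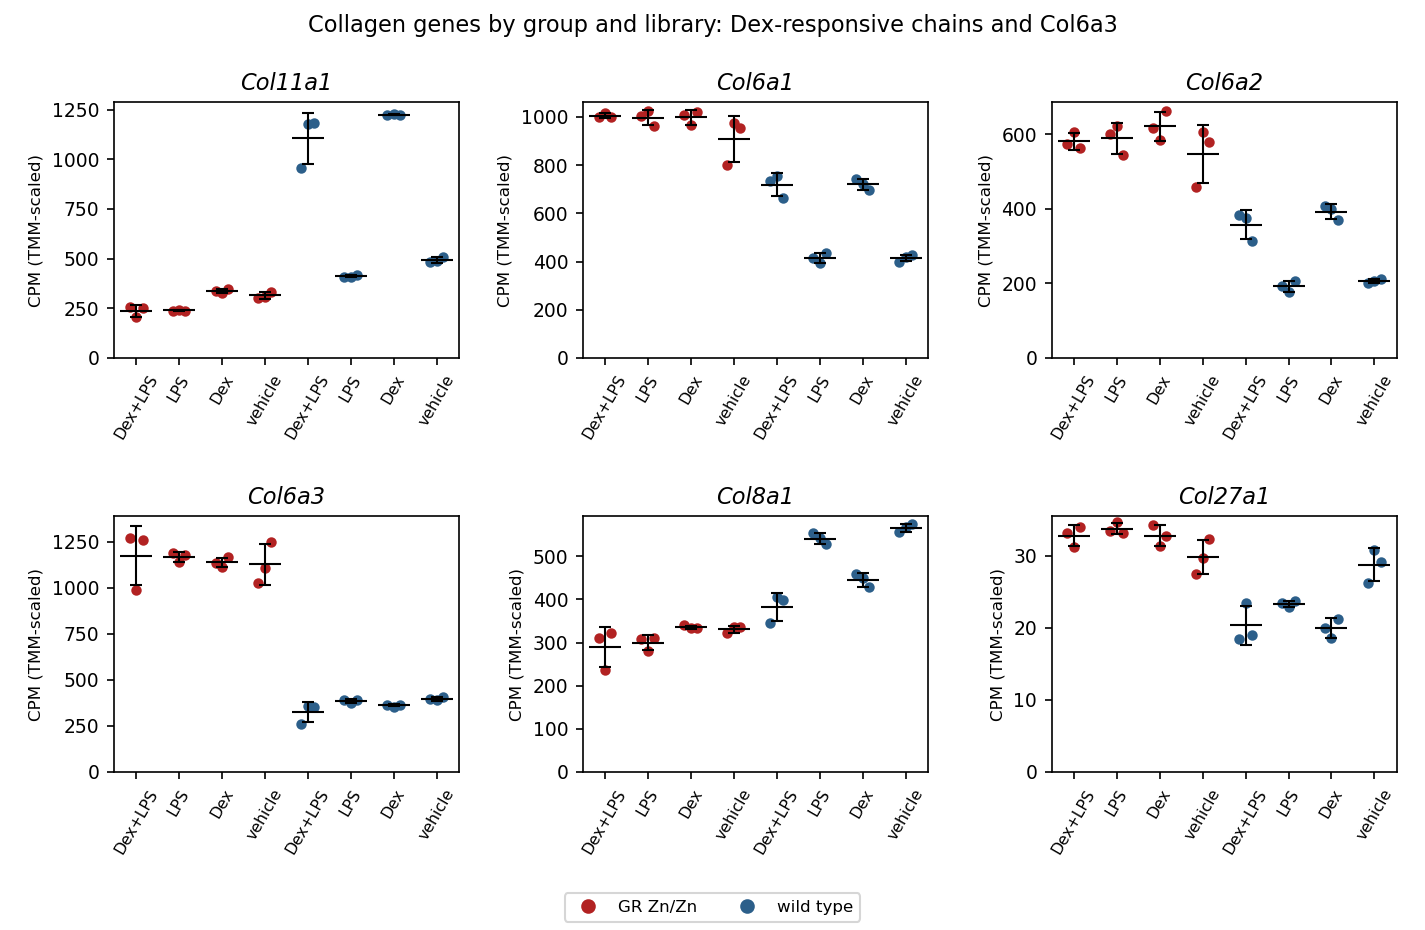
CPM of Col11a1, Col6a1, Col6a2, Col6a3, Col8a1 and Col27a1 in each library (points) with mean ± SD (bars, n = 3), groups ordered Dex plus LPS, LPS, Dex and vehicle, GR Zn/Zn left of wild type. In wild-type cells the Dex groups of Col11a1, Col6a1 and Col6a2 lie above the groups without Dex, and in GR Zn/Zn cells Col11a1 lies below the wild-type vehicle libraries in every group.

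Basement membrane genes that passed the test with Dex rose, 3 of 7 tested without LPS and 1 under LPS. Col4a1 and Col4a2 encode the chains of the common type IV network. They start head to head on chromosome 8, their first exons overlapping by 22 bases, so that they share a promoter. Col4a1 had 2850.4, 2904 and 2710.2 CPM with Dex and 2132, 2279 and 2289 CPM with vehicle in wild-type cells (log2 fold change 0.34, SE 0.072, adjusted p = 0.00202). Col4a2 had 1783, 1866 and 1717 CPM with Dex and 1405, 1534 and 1525 CPM with vehicle (log2 fold change 0.27, SE 0.088, adjusted p = 0.0484). Both genes were higher in every Dex library. The call of Col4a2 was lost without any one of the 6 libraries, at adjusted p of 0.172, 0.0803 and 0.0783 without vehicle replicate 1, 2 or 3 and 0.0962, 0.176 and 0.0564 without Dex replicate 1, 2 or 3. The pair kept its proportion: per kb, Col4a1 stood at 1.43 to 1.61 times Col4a2 in each of the 24 libraries. Col4a1 also rose under LPS by 0.26 on the log2 scale (adjusted p = 0.0114), a call lost without wild-type LPS replicate 3 (adjusted p = 0.0523) or DexLPS replicate 2 (0.0862). Col4a2 was called there with limma-voom (0.35, adjusted p = 0.000131), which gave DexLPS replicate 2 a weight of 1.99 and replicates 1 and 3 weights of 0.152 and 0.147. Without the 5 libraries that stood apart its log2 fold change was 0.37, with replicate 2 as the only DexLPS library left. Both values thus lean on that library. Col15a1, whose product bridges basement membrane and fibrils, rose by 0.50 with Dex without LPS (adjusted p = 0.00804), and the adjusted p was 0.0698 without wild-type vehicle replicate 2. Endothelium markers moved too: 1 of 4 tested was called higher, the 5 summed to 33.0 to 36.4 CPM with Dex and 27.2 to 28.6 CPM with vehicle, and the defining markers Pecam1 and Cdh5 stayed at or below 0.262 CPM in both groups. Their part in the result was not tested.

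Among the network genes, Col8a1, a short-chain collagen of vessel walls and activated fibroblasts, fell with Dex in wild-type cells. It averaged 446 ± 15.8 CPM with Dex and 566 ± 9.91 CPM with vehicle (SD, n = 3 each) and fell by 0.34 on the log2 scale (adjusted p = 0.00379), and under LPS it fell by 0.50 (adjusted p = 5.23e-05). Col10a1, the collagen of hypertrophic cartilage, fell under LPS (-0.61, adjusted p = 0.00353), and the adjusted p was 0.138 without the 5 libraries that stood apart. Col7a1, the gene of the anchoring fibrils that tie epidermis to dermis, rose under LPS (0.31, adjusted p = 0.00547; 0.0570 when the spread came from the compared groups alone).

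Fibril-associated genes gave 1 call in each wild-type comparison, in both cases Col19a1, a low gene whose product is found near basement membranes. Col19a1 had 2.97, 2.68 and 3.28 CPM with Dex and 1.19, 2.01 and 1.82 CPM with vehicle, and 2.001, 3.85 and 3.61 CPM with Dex plus LPS and 1.965, 1.71 and 1.09 CPM with LPS, in wild-type cells. These levels rest on 74, 65 and 64 reads with Dex and 25, 46 and 44 reads with vehicle. The Dex libraries were higher without overlap in both comparisons (log2 fold change 0.82, SE 0.27, adjusted p = 0.0475 without LPS and 0.99, SE 0.27, adjusted p = 0.00998 under LPS). The call without LPS was lost without any one of the 6 libraries: at adjusted p of 0.219, 0.0517 and 0.0899 without vehicle replicate 1, 2 or 3, and 0.109, 0.0704 and 0.142 without Dex replicate 1, 2 or 3. The call under LPS had an adjusted p of 0.0690 without wild-type LPS replicate 3. Col12a1, a large chain on the surface of type I fibrils and per kb the highest of its class, was named after its values were seen. It had 1973, 1914 and 1981 CPM with Dex and 1519.7, 1468 and 1567 CPM with vehicle in wild-type cells, a clear gap between the groups, and was not called (log2 fold change 0.37, SE 0.18, adjusted p = 0.217). It was called with limma-voom (adjusted p = 0.00344) and without the 2 libraries that deviated by transcript length (adjusted p = 0.000507). In those libraries its level was 1024 CPM against 1723 and 1913 CPM in the other wild-type DexLPS libraries, and 1013 CPM against 1715 and 1663 CPM in the other GR Zn/Zn DexLPS libraries.

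Of the 3 transmembrane genes tested, 2 fell with Dex in wild-type cells under LPS. Col23a1 had 2.05, 2.06 and 1.75 CPM with Dex plus LPS and 3.52, 3.63 and 4.13 CPM with LPS in wild-type cells, with no overlap, and fell by 0.96 on the log2 scale (SE 0.15, adjusted p = 3.19e-05). Col17a1, a protein of the attachment plaques of epithelia, had 0.222, 0.0448 and 0.142 CPM with Dex plus LPS and 0.274, 0.640 and 0.272 CPM with LPS, that is 5, 1 and 8 reads and 6, 15 and 5 reads. It was the largest called fold change under LPS (log2 fold change -1.52, SE 0.54, adjusted p = 0.0488), with no overlap of the groups at these low counts. The adjusted p was 0.339 without wild-type LPS replicate 2, 0.132 without DexLPS replicate 2 and 0.0887 without DexLPS replicate 3. Epithelium markers were low, and their sum fell as well. Of 3 tested 2 were called lower, while Krt8 had a positive log2 fold change of 0.44 that was not called (adjusted p = 0.641). The 6 markers summed to 7.53 to 9.43 CPM with Dex plus LPS and 14.8 to 16.3 CPM with LPS, with the defining markers Epcam, Cdh1 and Krt8 at or below 0.381 CPM. Their part in the result was not tested.

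Whether the Dex effect differed between the genotypes was tested directly. It reuses the libraries of both comparisons, so it is no further evidence for either. Without LPS, 5 of 39 collagen genes differed, 2 with a positive and 3 with a negative difference (GR Zn/Zn minus wild type), or 12.8%, where 6.99% of all tested genes differed, 2.60% positive and 4.40% negative. Under LPS 10 of 39 differed, 4 positive and 6 negative, or 25.6%, where 10.4% of all tested genes did, 5.36% positive and 5.03% negative. The largest difference was that of Col11a1, at -1.22 without LPS (SE 0.10, adjusted p = 2.71e-08) and -1.44 under LPS (SE 0.10, adjusted p = 1.29e-09). Col6a2 differed by -0.74 without LPS (adjusted p = 0.000338) and by -0.92 under LPS (adjusted p = 1.41e-05), and Col6a1 by -0.66 and -0.78. Among the genes Dex lowered in wild-type cells, Col27a1 differed by 0.67 without LPS (adjusted p = 0.000406), Col5a3 by 0.55 without LPS and 0.49 under LPS, Col23a1 by 0.95 under LPS (adjusted p = 0.00170), Col10a1 by 0.76 and Col8a1 by 0.45 under LPS. The GR Zn/Zn libraries had, for Col23a1, 5.79, 5.30 and 5.96 CPM with Dex plus LPS and 5.84, 5.49 and 5.81 CPM with LPS, and, for Col6a2, 573, 606 and 562 CPM with Dex plus LPS and 600.2, 623 and 544 CPM with LPS, where the groups overlapped in both genes. The smaller differences under LPS, Col7a1 at -0.39, Col4a1 at -0.35 and Col5a2 at -0.20, lost the call without single libraries: Col7a1 without GR Zn/Zn LPS replicate 2 (adjusted p = 0.0875), GR Zn/Zn DexLPS replicate 1 (0.0688), wild-type LPS replicate 1 (0.0813) or 3 (0.0618) or wild-type DexLPS replicate 2 (0.0839). Col4a1 lost it without GR Zn/Zn LPS replicate 1 (adjusted p = 0.0732) or 2 (0.0986), GR Zn/Zn DexLPS replicate 2 (0.0534), wild-type LPS replicate 1 (0.0514), 2 (0.0704) or 3 (0.0821), or wild-type DexLPS replicate 2 (0.0904). Col5a2 lost it without GR Zn/Zn LPS replicate 1 (adjusted p = 0.104) or 2 (0.128), GR Zn/Zn DexLPS replicate 1 (0.0668) or 3 (0.0532), wild-type LPS replicate 1 (0.0841), 2 (0.110) or 3 (0.0889), or wild-type DexLPS replicate 2 (0.0523). When the spread came from the compared groups alone, 5 of the 10 calls under LPS were lost: Col4a1 (adjusted p = 0.0544), Col5a2 (0.151), Col7a1 (0.0550), Col8a1 (0.105) and Col10a1 (0.0550). The difference of Col10a1 had an adjusted p of 0.187 without the 5 libraries that stood apart, and the count without LPS was then 12. Whether the wild-type Dex effect differed with and without LPS was also tested. By edgeR 0 of 39 collagen genes were called, where 1.56% of all tested genes were, 0.315% higher and 1.25% lower. In that test 5 collagen genes and 1570 of all 15221 tested genes had an unadjusted p under 0.05. DESeq2 called 0 and limma-voom called 4 collagen genes.

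Nearly all genes that make and cross-link collagen and passed the test with Dex in wild-type cells rose. Of 35 tested, 8 rose and 0 fell without LPS (median log2 fold change 0.11), where 7.92% of all tested genes rose and 5.24% fell. Under LPS 10 rose and 1 fell, where 10.5% of all tested genes rose and 10.6% fell. In either direction that is 22.9% of these collagen synthesis genes without LPS, against 13.2% of all tested genes, and 31.4% under LPS, against 21.0%. The largest rise was that of Tmem38b, an ion channel of the endoplasmic reticulum needed for proper collagen folding (log2 fold change 1.45, SE 0.080, adjusted p = 7.16e-12), followed by the cross-linking oxidases Lox (log2 fold change 0.65, SE 0.083, adjusted p = 4.24e-06) and Loxl3 (log2 fold change 0.58, SE 0.052, adjusted p = 1.72e-08). Under LPS the same 3 led, with 1.49, 0.54 and 0.52. In GR Zn/Zn cells 0 of the 35 passed the test in either Dex comparison, and the differences between the genotypes without LPS were -1.39 for Tmem38b, -0.62 for Lox and -0.55 for Loxl3, 3 of the 5 that were called, all negative. Of 19 tested collagen receptors and collagen-degrading enzymes, 1 rose and 2 fell with Dex in wild-type cells without LPS: the receptor gene Itga10 (0.97), and Timp3, an inhibitor of matrix proteases (-0.67), and Itga11 (-0.35). Under LPS 1 rose and 7 fell, led by the collagenase gene Mmp13 (log2 fold change -2.29, SE 0.47, adjusted p = 0.00131), the gelatinase gene Mmp9 (-1.97) and Mmp1b (-1.59). Of 36 other matrix genes 5 rose and 7 fell without LPS, with Postn at 0.95, Lum at -0.71 and Aspn at 0.62, and 6 rose and 8 fell under LPS. Of 16 genes of the TGF-beta pathway, a main driver of collagen genes, 4 rose and 1 fell in each. Against the same 13.2% and 21.0%, the shares called were 15.8% without and 42.1% with LPS for receptors and degrading enzymes, 33.3% and 38.9% for other matrix genes and 31.2% in each for the TGF-beta pathway. In wild-type cells other marker sums moved with Dex as well: 6 nerve and glia markers summed to 76.2 to 76.6 CPM with Dex and 50.1 to 54.0 CPM with vehicle, almost all of it Tubb3, 6 muscle markers to 68.0 to 76.4 and 52.6 to 61.9 CPM, and 6 bone markers to 1033 CPM in the libraries with Dex and 1383 to 1422 CPM in those with vehicle. Of the bone markers tested, only Spp1 was called (log2 fold change -0.46). Ibsp (3.52), Alpl (1.40), Sp7 (0.53) and Runx2 (0.042) had positive fold changes that were not called. The part of these marker sums in the results was not tested.

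LPS changed collagen genes of several kinds in both genotypes. Col5a3, Col23a1, Col6a4 and Col18a1 rose, and Col11a1 and Col8a2 fell, in GR Zn/Zn and in wild-type cells. In GR Zn/Zn cells 11 of 39 were called, 8 higher and 3 lower, or 28.2%, where 36.7% of all tested genes were called, 19.0% higher and 17.7% lower. In wild-type cells 8 were called, 4 in each direction, or 20.5%, where 26.4% were called, 14.0% higher and 12.4% lower. In this fit of all 24 libraries the shares of collagen genes lay below those of all genes. With only the compared groups, wild-type cells had 22 collagen genes called, a higher share than the 6847 of all 14180 tested genes. In the fit of all libraries the median log2 fold change was 0.16 over the collagen genes and 0.00084 over all genes in GR Zn/Zn cells, and -0.043 and -0.0081 in wild-type cells. These comparisons share their LPS libraries with the Dex comparisons under LPS and their vehicle libraries with those without LPS. The genotypes share no library here, and 6 genes were called in both, 6 of 11 in GR Zn/Zn and 6 of 8 in wild-type cells. The overlap of the genotypes over all tested genes is not given here, so this count cannot be read as particular to collagen genes. The wild-type count was 5 without wild-type vehicle replicate 2, LPS replicate 1 or LPS replicate 2, and 16 without the 5 libraries that stood apart.

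The promoter of Col5a3 is shown because this fibrillar gene gave the largest called change with LPS in wild-type cells. The 250 bases before its start lie on the minus strand at chr9:20815068-20815317 (RefSeq, GRCm38.p6), and capitals mark a CCAAT box and GC boxes.
Col5a3 promoter: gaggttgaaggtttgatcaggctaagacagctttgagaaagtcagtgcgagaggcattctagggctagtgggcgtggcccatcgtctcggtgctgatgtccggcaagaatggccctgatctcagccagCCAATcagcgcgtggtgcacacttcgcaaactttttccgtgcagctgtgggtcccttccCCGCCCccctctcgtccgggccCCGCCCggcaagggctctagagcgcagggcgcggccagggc

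Col5a3 had 548, 617 and 523 CPM with LPS and 155, 199 and 191 CPM with vehicle in GR Zn/Zn cells. In wild-type cells it had 220.4, 239.5 and 232 CPM with LPS and 84.9, 96.0 and 94.2 CPM with vehicle. Every LPS library lay above every vehicle library of its genotype, and the rise was 3.10-fold in GR Zn/Zn (log2 fold change 1.63, SE 0.085, adjusted p = 4.55e-13) and 2.51-fold in wild-type cells (log2 fold change 1.33, SE 0.086, adjusted p = 3.3e-11). With Dex plus LPS the level was 525, 542 and 532 CPM in GR Zn/Zn and 164, 168 and 136 CPM in wild-type cells. These values overlapped the LPS libraries in GR Zn/Zn cells and lay below them without overlap in wild-type cells, where the test of the difference between the genotypes gave 0.49 (adjusted p = 0.00772). Since its partner Col5a1 was not called with LPS, Col5a3 per kb stood at 0.301 ± 0.00985 of Col5a1 with LPS and 0.109 ± 0.00213 with vehicle in GR Zn/Zn cells, and at 0.161 ± 0.00763 and 0.0603 ± 0.00146 in wild-type cells (mean ± SD, n = 3 each). Col11a1 fell by 0.40 in GR Zn/Zn and fell by 0.26 in wild-type cells on the log2 scale (adjusted p = 0.000150 and 0.00930). Col27a1 fell in wild-type cells by 0.30 (adjusted p = 0.00828; 0.0570 without wild-type vehicle replicate 2). Of the 7 cartilage markers 5 were tested and 2 were called lower in each genotype. They summed to 22.4 to 23.4 CPM with LPS and 26.7 to 33.5 CPM with vehicle in GR Zn/Zn cells, and to 17.1 to 23.9 and 28.1 to 30.0 CPM in wild-type cells. Their part in the fall of Col11a1 was not tested.

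The transmembrane gene Col23a1 had 5.84, 5.49 and 5.81 CPM with LPS and 1.77, 2.24 and 2.57 CPM with vehicle in GR Zn/Zn cells, and 3.52, 3.63 and 4.13 CPM with LPS and 1.66, 1.66 and 1.90 CPM with vehicle in wild-type cells. The groups did not overlap in either genotype (log2 fold change 1.41, SE 0.14, adjusted p = 2.5e-08 in GR Zn/Zn and 1.10, SE 0.15, adjusted p = 5.98e-06 in wild-type cells). Col6a4, a relative of the type VI chains, had 1.05, 0.851 and 1.24 CPM with LPS and 0.371, 0.714 and 0.211 CPM with vehicle in GR Zn/Zn cells, and 0.914, 0.725 and 0.761 CPM with LPS and 0.285, 0.393 and 0.455 CPM with vehicle in wild-type cells. The LPS libraries were higher in both genotypes (log2 fold change 1.30, SE 0.33, adjusted p = 0.00376 in GR Zn/Zn and 1.06, SE 0.37, adjusted p = 0.0382 in wild-type cells). The wild-type call was lost without any one of the 6 libraries, at adjusted p of 0.124, 0.0597 and 0.0660 without LPS replicate 1, 2 or 3 and 0.132, 0.0832 and 0.0546 without vehicle replicate 1, 2 or 3. Col6a1, Col6a2 and Col6a3, the type VI chains that these cells expressed at high level, were not called in either genotype. Col22a1, a low fibril-associated gene of tissue junctions, was called higher in GR Zn/Zn cells (log2 fold change 2.10, SE 0.55, adjusted p = 0.00407), at 17, 29 and 15 reads with LPS and 7, 4 and 5 reads with vehicle. It was not called in wild-type cells (1.22, adjusted p = 0.0810; 0.0115 with limma-voom and 0.0474 without the 5 libraries that stood apart), nor was the difference between the genotypes' effects (0.88, adjusted p = 0.824).

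Of the basement membrane genes, Col18a1, which encodes a heparan sulphate proteoglycan and the source of endostatin, rose by 1.04 in GR Zn/Zn (adjusted p = 1.97e-09) and by 0.71 in wild-type cells (adjusted p = 2.98e-06). The head-to-head pair rose in GR Zn/Zn cells. Col4a1 had 1971, 2029 and 1828 CPM with LPS and 1399, 1758 and 1659 CPM with vehicle (log2 fold change 0.28, SE 0.072, adjusted p = 0.00437), and Col4a2 1291, 1347 and 1201 CPM with LPS and 869.9, 1173 and 1113 CPM with vehicle (log2 fold change 0.28, SE 0.088, adjusted p = 0.0141). Vehicle replicate 1, a library that stood apart, was the lowest in both genes. The adjusted p of Col4a2 was 0.121 without that library, 0.0698 without LPS replicate 2 0.137 without the 5 libraries that stood apart and 0.0778 when the spread came from the compared groups alone. In wild-type cells the log2 fold change was 0.065, adjusted p = 0.581 for Col4a1 and 0.057, adjusted p = 0.704 for Col4a2. Of the network genes, Col8a2 fell by 0.60 in GR Zn/Zn and fell by 0.47 in wild-type cells. The wild-type adjusted p of 0.0210 was 0.0555 and 0.155 without LPS replicate 1 or 2 and 0.0878 without vehicle replicate 1. The remaining calls were small: in GR Zn/Zn cells Col7a1 rose by 0.38 and Col28a1 fell by 0.33 (adjusted p = 0.0314; 0.145 without vehicle replicate 3 and 0.100 without LPS replicate 3), and in wild-type cells Col14a1 fell by 0.26 (adjusted p = 0.0472). The call of Col14a1 was lost without LPS replicate 1 (adjusted p = 0.193) or 2 (0.131) or without vehicle replicate 1 (0.129), 2 (0.0737) or 3 (0.116).

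**Figure D4:**
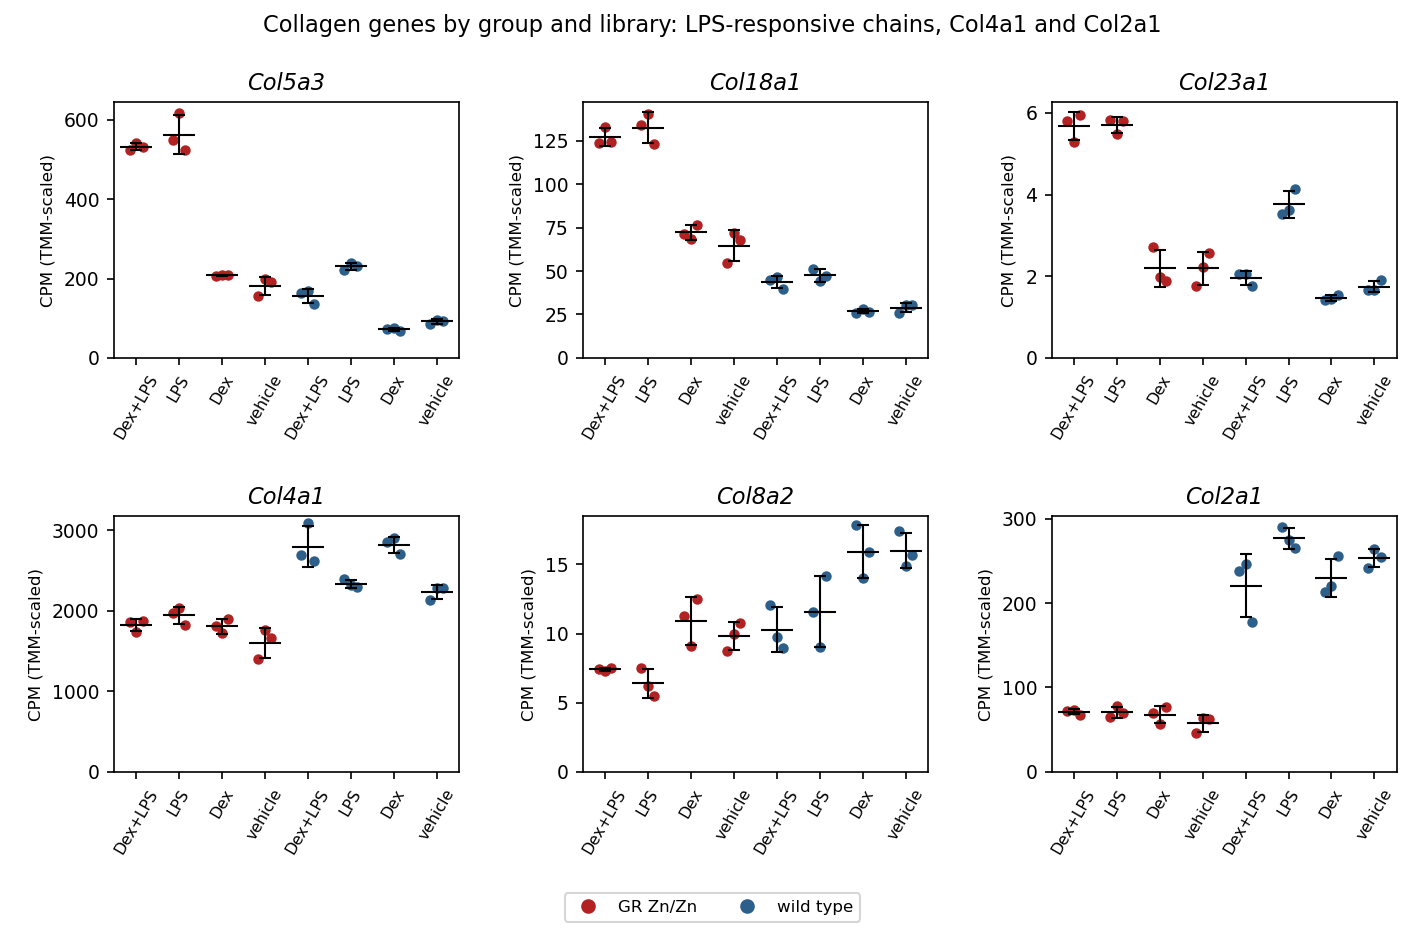
CPM of Col5a3, Col18a1, Col23a1, Col4a1, Col8a2 and Col2a1 in each library (points) with mean ± SD (bars, n = 3), groups ordered Dex plus LPS, LPS, Dex and vehicle, GR Zn/Zn left of wild type. Col5a3 and Col18a1 are higher with LPS in both genotypes, and Col2a1 is lower in GR Zn/Zn than in wild-type cells in every treatment.

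Tested directly, the LPS effect was not called different between the genotypes for any of the 39 collagen genes by edgeR. Of all tested genes 0.539% were called, 0.348% higher and 0.191% lower. Here 6 collagen genes and 1337 of all 15221 tested genes had an unadjusted p under 0.05. The smallest adjusted p of a collagen gene was 0.0559, for Col27a1 (difference 0.49, interval 0.26 to 0.71). DESeq2 and limma-voom each called 1, in both cases Col27a1 (adjusted p = 0.0102 and 0.00445). The other genes of the pathway were called at shares both above and below the 36.7% of all tested genes in GR Zn/Zn and 26.4% in wild-type cells. The share was 34.3% in GR Zn/Zn and 22.9% in wild-type cells for synthesis genes, 52.6% in each for receptors and degrading enzymes, 52.8% and 41.7% for other matrix genes and 75.0% and 50% for the TGF-beta pathway. Of 35 synthesis genes 10 rose and 2 fell in GR Zn/Zn and 6 rose and 2 fell in wild-type cells, where Creb3l1, a transcription factor for collagen genes, rose by 0.82, the prolyl hydroxylase gene P3h2 by 0.57 and Loxl4 by 0.51. Of 19 receptors and degrading enzymes 7 rose and 3 fell in GR Zn/Zn and 6 rose and 4 fell in wild-type cells, where the collagenase gene Mmp13 (log2 fold change 3.96, SE 0.57, adjusted p = 2.16e-05), Mmp1b (3.45) and the gelatinase gene Mmp9 (2.71) led. Of 36 other matrix genes 9 rose and 10 fell in GR Zn/Zn and 6 rose and 9 fell in wild-type cells, where Agrn stood at 0.94, Eln at -0.76 and Lum at 0.74. Of 16 TGF-beta pathway genes 8 rose and 4 fell in GR Zn/Zn and 5 rose and 3 fell in wild-type cells. The 6 leukocyte markers summed to 56.9 to 61.9 CPM with LPS and 56.3 to 60.2 CPM with vehicle in GR Zn/Zn cells, and to 28.6 to 31.9 and 26.8 to 28.1 CPM in wild-type cells, with the defining marker Ptprc at 7.83 to 9.53, 3.59 to 4.22, 5.001 to 5.12 and 2.10 to 2.69 CPM in the same order. Within these sums single markers were called both ways. In GR Zn/Zn cells Cd52 (1.15), Ptprc (1.14) and Adgre1 (0.97) rose, and Csf1r (-0.64) and Itgam (-0.43) fell. In wild-type cells Cd52 (1.41), Adgre1 (1.18) and Ptprc (1.11) rose, and Csf1r (-0.52) fell. The part of these markers in the collagen results with LPS was not tested.

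Of the 11 comparisons, that of the genotypes in vehicle called the most collagen genes. Type VI genes, Col15a1, Col18a1, Col25a1 and Col5a3 were higher in GR Zn/Zn cells, and Col2a1, Col19a1, Col9a3, type VIII genes and the Col4a1 and Col4a2 pair were lower. In all, 20 of 39 were called, 11 higher and 9 lower, or 51.3%, where 18.8% of all tested genes were called, 8.69% higher and 10.1% lower. The median log2 fold change was 0.056 over the collagen genes and -0.0053 over all tested genes. This comparison shares the wild-type vehicle libraries with the wild-type Dex and LPS comparisons above.

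Among the fibrillar genes 3 were higher and 2 lower of 11. Col2a1, the main fibril gene of cartilage, had 46.1, 64.0 and 62.7 CPM in GR Zn/Zn and 242, 264 and 255 CPM in wild-type cells. All GR Zn/Zn libraries lay far below all wild-type libraries, 4.43-fold lower (log2 fold change -2.15, SE 0.13, adjusted p = 9e-11). The same gap stood with the other treatments: Col2a1 averaged 67.9 ± 9.93 CPM in GR Zn/Zn and 229.6 ± 22.5 CPM in wild-type cells with Dex, and 70.7 ± 6.52 and 276 ± 12.96 CPM with LPS (SD, n = 3 each). The cartilage markers lay closer together: of 5 tested 1 was lower, the 7 summed to 26.7 to 33.5 CPM in GR Zn/Zn and 28.1 to 30.0 CPM in wild-type cells, and Sox9 stood at 16.5 to 23.0 and 17.9 to 20.3 CPM and Acan at 3.71 to 4.30 and 2.73 to 4.37 CPM. Col11a1 was also lower in GR Zn/Zn cells (-0.65), while Col5a3 (0.98), Col24a1 (0.66) and Col3a1 (0.50) were higher. The main type I genes were not called, with intervals of -0.13 to 0.39 for Col1a1 and 0.020 to 0.28 for Col1a2. Both were called higher in GR Zn/Zn cells with limma-voom, Col1a1 by 0.26 (adjusted p = 0.0184) and Col1a2 by 0.20 (0.000293), and without the 5 libraries that stood apart, GR Zn/Zn vehicle replicate 1 among them, by 0.32 (adjusted p = 0.00391) and 0.24 (0.000861).

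The 3 abundant type VI genes were all higher in GR Zn/Zn cells. Col6a1 averaged 908 ± 95.3 CPM in GR Zn/Zn and 414 ± 13.7 CPM in wild-type cells, Col6a2 547 ± 77.6 and 206 ± 6.59 CPM, and Col6a3 1127 ± 112 and 398 ± 9.60 CPM (SD, n = 3 each). The log2 fold changes were 1.13, 1.41 and 1.503, with adjusted p of 1.02e-11, 1.03e-10 and 1.39e-10. Per kb, Col6a3 stood at 0.505 ± 0.0373 of Col6a1 in GR Zn/Zn and 0.390 ± 0.0113 in wild-type cells.

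Basement membrane genes went both ways, 3 higher and 2 lower of 7. Col15a1 had 15.4, 18.0 and 17.01 CPM in GR Zn/Zn and 3.99, 3.54 and 5.09 CPM in wild-type cells, 3.96-fold higher without overlap (log2 fold change 1.99, SE 0.11, adjusted p = 1.71e-11). Col18a1 was higher by 1.15 (adjusted p = 3.41e-09), and Col4a6 by 0.41 (adjusted p = 0.0198), a call lost without GR Zn/Zn vehicle replicate 3 (adjusted p = 0.0525) or wild-type vehicle replicate 1 (0.0943) or 3 (0.0628). Col4a1 had 1399, 1758 and 1659 CPM in GR Zn/Zn and 2132, 2279 and 2289 CPM in wild-type cells (log2 fold change -0.48, SE 0.072, adjusted p = 3.51e-05), and Col4a2 had 869.9, 1173 and 1113 CPM in GR Zn/Zn and 1405, 1534 and 1525 CPM in wild-type cells (log2 fold change -0.50, SE 0.088, adjusted p = 0.000191). Both were lower in every GR Zn/Zn library. Endothelium markers were lower too, 2 of 4 tested, and summed to 10.8 to 12.9 CPM in GR Zn/Zn and 27.2 to 28.6 CPM in wild-type cells, as were 2 of 3 muscle markers tested, at 12.8 to 15.1 and 52.6 to 61.9 CPM. Of the defining markers, Pecam1 and Cdh5 stood at or below 0.262 CPM and Myod1 at or below 0.127 CPM in both genotypes. Their part in the result was not tested.

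Col25a1, a transmembrane collagen of neurons and muscle, had 2.33, 2.24 and 2.28 CPM in GR Zn/Zn and 0.997, 0.306 and 0.579 CPM in wild-type cells, and was 3.66-fold higher with no overlap (log2 fold change 1.87, SE 0.31, adjusted p = 8.8e-05). The network genes Col8a1 and Col8a2 were lower in GR Zn/Zn cells (-0.77 and -0.71) and Col10a1 was higher (0.59). All 3 called fibril-associated genes, of 9, were lower: Col14a1 (-0.78), Col9a3 (-1.54) and Col19a1 (-1.83). Fibroblast and leukocyte markers differed as well. Of 8 fibroblast markers 5 were higher and 1 lower in GR Zn/Zn cells, with sums of 11849.5 to 13668 CPM in GR Zn/Zn and 15830.5 to 16786 CPM in wild-type cells. Of 6 leukocyte markers 5 were higher, with sums of 56.3 to 60.2 and 26.8 to 28.1 CPM. Their part in the collagen results was not tested. Of the other genes of the pathway, 4 of 35 synthesis genes were higher and 7 lower in GR Zn/Zn cells, with Plod2 at -0.88, P3h2 at -0.87 and Adamts2, which trims procollagen, at 0.79. Of 19 receptors and degrading enzymes 3 were higher and 5 lower, led by the collagen receptor gene Itga2 (-1.52), Ctsk (0.98) and Mmp2 (-0.81). Of 36 other matrix genes 11 were higher and 8 lower, led by Prelp (1.96), Lum (1.29) and Lama4 (1.28), and of 16 TGF-beta pathway genes 2 were higher and 6 lower. Against 18.8% of all tested genes, the shares called were 31.4% of synthesis genes, 42.1% of receptors and degrading enzymes, 52.8% of other matrix genes and 50% of the TGF-beta pathway genes.

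**Figure D5:**
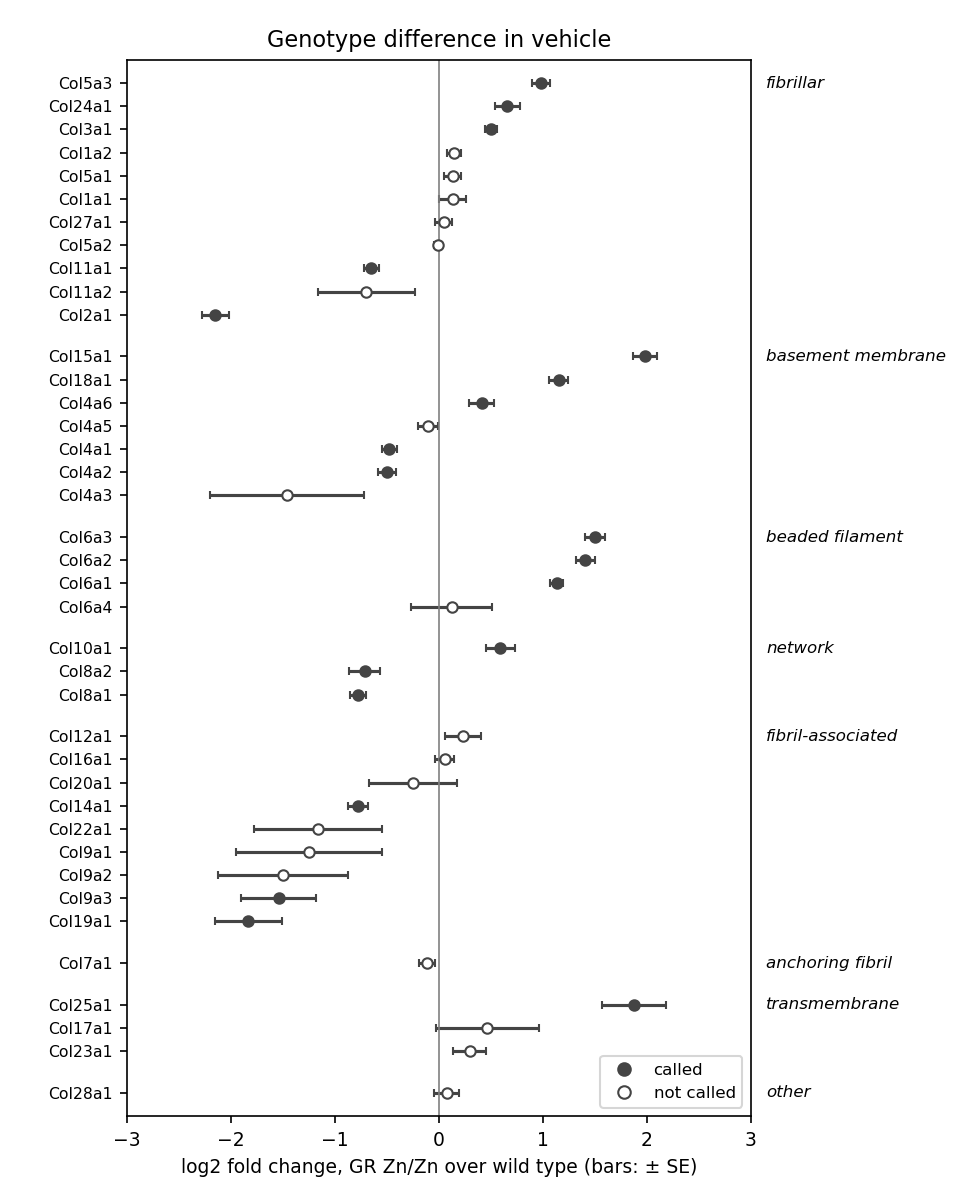
Log2 fold change of GR Zn/Zn over wild type in vehicle (points) with SE (bars) for the 39 tested collagen genes, grouped by the kind of collagen; filled points are called. The abundant type VI genes lie between 1.13 and 1.503, and Col2a1 lies lowest at -2.15.

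The promoters of the collagen genes were read for short motifs on both strands. RefSeq windows of 250 bases before the start (GRCm38.p6) were available for 35 of the 44 genes, 38 windows in all. The full GR site, AGAACA and TGTTCT with any 3 bases between them, was in 0 of them and in 0.00913% of 32851 windows of all genes, and its shorter form AGAACA, which the full site contains, in those of Col9a1 and Col20a1 and in 16.1% of all windows. The GC box GGGCGG was in windows of 21 genes (22 of the 38 windows) against 32.7% of all windows, the CCAAT box in windows of 13 genes against 33.8%, and TATAAA in windows of 5 genes against 12.4%. TGAGTCA, the AP-1 site, was in the window of Col6a1 and in 4.46% of all windows, and a kappaB site, GGG and TTTCC with any 2 bases between them, in that of Col17a1 and in 1.41% of all windows. In the promoter printed for Col11a1 the CCAAT box lies 79 bases and the GC boxes 110 and 19 bases before the start, in that of Col5a3 the CCAAT box lies at 122 and the GC boxes at 63 and 41 bases, and in that of Col6a2 the GC box lies at 175 bases. A match is a description of the letters only, and these windows cover no distant enhancer.

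The 5 genes that did not pass the filter were Col4a4, Col6a5, Col6a6, Col13a1 and Col26a1. Over the 24 libraries they reached at most 0.480 CPM (Col4a4), 0.331 CPM (Col6a5), 0.365 CPM (Col6a6), 0.156 CPM (Col13a1) and 0.620 CPM (Col26a1). Col4a4 and Col4a3, whose starts lie 71 bases apart head to head on chromosome 1, and Col4a6 and Col4a5, 1308 bases apart on the X chromosome, are the other paired type IV genes. Of the 39 tested, 28 were called in at least 1 of the 11 comparisons. The same count over all tested genes is not given here, and LPS in GR Zn/Zn cells alone called 36.7% of them.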

How the data were processed

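PolyA RNA (500 ng a sample) was made into stranded libraries, per the labels' protocols; mm10, DESeq2, DESeq, FastQC and STAR (2.4.2a, 2.4.2) are in the submitters' processing notes. The authors deposited STAR counts per gene and sample, in 3 strand columns, and tables of their own comparisons with log2 fold changes and p-values (deposited, 32 of the 44 genes each). The annotation release behind the counts is not given in the sources used here. The column of reads on the transcribed strand was used, since it held nearly all of them (other strand 2.70% to 2.91%), and 96 further per-sample columns were not used. Rows naming no gene stayed out: reads in no gene were 3.10% to 4.72%, multimapping 3.74% to 5.79%, unmapped 2.92% to 5.58% and ambiguous 1.18% to 1.41%. GENCODE matched 45143 IDs and gave transcript lengths.

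Genes were filtered by filterByExpr, scaled by TMM and tested with edgeR 4.0.16 (R 4.3.3), by the quasi-likelihood test with robust dispersion, 1 coefficient per group over all 24 libraries, and Benjamini-Hochberg adjustment over 15221 genes. Differences between comparisons are contrasts of the same fit, and 95% intervals take the normal quantile times the SE. Levels are CPM on TMM-scaled library sizes, divided by the transcript length in kb where genes are compared. The scripts were tested on simulated data. Alternatives were DESeq2 size factors, no filter, both strands, a replicate block, only the groups compared, limma-voom with quality weights (limma 3.58.1), DESeq2 1.42.0, and fits without single libraries, without 5 that stood apart and without 2 that deviated by transcript length. Same-numbered libraries deviated together with correlations of -0.237 to 0.322 and never all 3 above 0.1. The main fit therefore did not pair samples by number. So few correlations cannot exclude a pairing, and the replicate block was run as an alternative.

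The genes given library by library are, by rule, the 3 highest per kb in wild-type vehicle cells, the 3 called with the largest change in each wild-type treatment comparison, in the genotype comparison and in both differences of Dex effects, and the pair Col4a1 and Col4a2; of each gene list, the 3 called with the largest change. Col12a1 and other genes given in full were chosen after their values were seen. The members, gene lists, markers and tests were chosen with earlier results of these data known.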

Additional observations from a re-analysis of the deposited data

Results flagged for a closer look

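The effect of Dex differed between GR Zn/Zn and wild-type cells, by a test of the difference itself (edgeR quasi-likelihood test, GR Zn/Zn effect minus wild-type effect, log2 scale, adjusted over all tested genes), for 5 collagen genes without LPS and 10 under LPS. Without LPS the difference was -1.22 for Col11a1, -0.74 for Col6a2 and -0.66 for Col6a1, genes that Dex raised in wild-type cells. It was 0.67 for Col27a1 and 0.55 for Col5a3, genes that Dex lowered there. Under LPS the difference was -1.44 for Col11a1, -0.92 for Col6a2, -0.78 for Col6a1, -0.39 for Col7a1, -0.35 for Col4a1 and -0.20 for Col5a2, all raised by Dex in wild-type cells under LPS. It was 0.95 for Col23a1, 0.76 for Col10a1, 0.49 for Col5a3 and 0.45 for Col8a1, all lowered there. Adjusted p-values ran from 2.71e-08 to 0.00468 without LPS and from 1.29e-09 to 0.0279 under LPS. Single libraries decided the calls of Col7a1, Col4a1 and Col5a2, as the values above show.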

How the results depend on the processing

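Alternatives were run for the 76 collagen gene results that were called, and none of these reversed its direction. Of the 76, 55 kept their side of the threshold under every alternative run, and of 1229 alternative values 95 lost the call, 64 of them among the 546 fits without a single library. Counts of collagen genes called moved further. With Dex in wild-type cells 10 genes were called, against 17 with only the compared groups, 16 without the 5 libraries that stood apart and 17 with limma-voom. With Dex under LPS in wild-type cells 12 were called, against 6 with only the compared groups. With LPS in wild-type cells 8 were called, against 22 with only the compared groups, 16 without the 5 libraries and 15 with limma-voom. For the difference of Dex effects between the genotypes 5 were called, against 9 with only the compared groups, 12 without the 5 libraries, 9 without the 2 libraries deviating by length and 11 with limma-voom; under LPS 10 were called, against 5 with only the compared groups. For the difference of LPS effects 0 were called, against 1 with only the compared groups, 2 without the 5 libraries, 1 without the 2 libraries, 1 with limma-voom and 1 with DESeq2. For the difference of wild-type Dex effects with and without LPS 0 were called, against 3 without the 5 libraries, 1 without the 2 libraries and 4 with limma-voom. The counts over all tested genes moved in the same direction with only the compared groups. They went from 2003 of 15221 to 4659 of 14208 with Dex and from 4020 to 6847 of 14180 with LPS in wild-type cells. With Dex under LPS they went from 3198 to 1544 of 14126. For the difference of Dex effects they went from 1064 to 1659 of 14675, and under LPS from 1581 to 1042 of 14609. All-gene counts with limma-voom are not given here. The cause of these shifts was not tested. Leaving out single libraries gave 7 to 9 calls with Dex in wild-type cells, 9 to 13 with Dex under LPS, 5 to 8 with LPS in wild-type and 10 to 13 with LPS in GR Zn/Zn cells, 5 to 6 and 7 to 11 for the differences of Dex effects without and with LPS, 0 to 1 for that of LPS effects and 19 to 22 between the genotypes. The replicate block kept 73 of 76 calls and lost those of Col17a1 with Dex under LPS (adjusted p = 0.0706), Col19a1 with Dex (0.0621) and Col6a4 with LPS (0.0504) in wild-type cells. In the fit without the 5 libraries, wild-type DexLPS has 1 library, assumed to vary like the other groups. Depth limits the low genes: Col17a1, Col19a1, Col22a1 and Col6a4 rest on few reads a library, and each group holds 3 libraries of unknown independence.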
